A study of Mus musculus with 18 samples.

Results

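The 6 libraries described here are CLK ChIP-seq libraries from mouse liver at ZT06, 3 from chromatin digested with micrococcal nuclease (MNase) and 3 from sonicated chromatin, out of 18 libraries in the series. They were chosen by their sample titles, which give the kind of chromatin, the time and the mouse number (28, 29 or 30), and each number occurs once in each kind of chromatin. All came from adult C57BL/6 mice of 3 to 6 months labelled WT, kept under 12 h of light per day, and ZT06 is 6 h after lights on. Livers were fixed in 1% formaldehyde for 10 min. Nuclei were then either digested for 15 min with 30000 gel units of MNase per reaction or sonicated, and both kinds of chromatin were precipitated with the same goat polyclonal antibody against CLK. The series states that both kinds came from the same mice, with inserts of about 147 bp after MNase digestion and of 150 to 300 bp after sonication. Input of sonicated chromatin at ZT06 (3 libraries) and CLK ChIP of both kinds at ZT22, 22 h after lights on (6 libraries), served only for comparison.

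CLK (CLOCK) is a basic helix-loop-helix factor that pairs with BMAL1 and binds E-box elements, and in liver this pair drives daytime transcription of clock genes such as the Per and Cry repressors and of many metabolic genes. MNase cuts accessible DNA between nucleosomes, so that a library of short inserts mainly reads out DNA protected by nucleosomes. Sonication breaks crosslinked chromatin with little regard to nucleosome borders, and a ChIP library from it shows a bound factor as a peak over its site. The comparison asks how the same immunoprecipitation looks at the same sites when it is read through nucleosome-sized fragments and through sheared fragments.

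Each deposited profile is a mean over sites, given at positions whose spacing and origin the files imply but do not state. They were taken as 10 bp apart, with the midpoint of the peak at 0. Profiles exist for the CLK:BMAL1 sites as a whole (all sites) and for 400 of them named as top sites. No source used here gives the rule behind that choice, and whether these libraries took part in it is unknown. The peaks themselves had a median width of 309 bp and lay at transcription start sites in 18.1% and in introns in 43.9% of 3217 listed sites. Each library was divided by its own mean over the outer flanks, the 100 positions at least 1000 bp from the midpoint, and is called relative signal below. A relative signal of 1 is the flank level, and only shapes, not levels, are compared. Another listed site had its midpoint within 990 bp of 442 sites (13.7%) and in the flank range of 92 sites (2.86%), so neighbouring sites contribute to both.

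At the centre of all sites, within 100 bp of the midpoint, sonicated CLK ChIP rose about 3-fold over its flanks, while MNase-digested CLK ChIP fell below them. The sites are themselves listed as ChIP-seq peaks of CLK:BMAL1. The sonicated rise, and the gap it opens to MNase-digested chromatin, were therefore partly set by the choice of sites. How these peaks were called was not examined here. The deposited signal at the centre of sonicated chromatin was 7.84, 7.64 and 8.89 in mice 28, 29 and 30, over flanks of 2.53, 2.50 and 2.69. In MNase-digested chromatin of the same livers it was 5.17, 4.93 and 5.70, over flanks of 5.76, 5.64 and 6.15. Relative to the flanks this gave 3.10, 3.05 and 3.31 in sonicated and 0.897, 0.875 and 0.928 in MNase-digested chromatin. All 3 sonicated libraries lay above 1 and all 3 MNase-digested ones below it, and the spread within a kind of chromatin was small beside the gap between them. MNase minus sonicated was -1.79, -1.80 and -1.83 on the log2 scale in the 3 livers, a mean of -1.81 ± 0.01 (SE, n = 3 livers). The exact two-sided permutation test of 3 against 3 libraries gave p = 0.1, the smallest this design allows (adjusted p = 0.25 over all tests of window values and of left against right sides). Flipping the signs of the 3 paired differences, an exact two-sided permutation over livers, gave p = 0.25, again the smallest possible (adjusted p = 0.28).

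**Figure D1:**
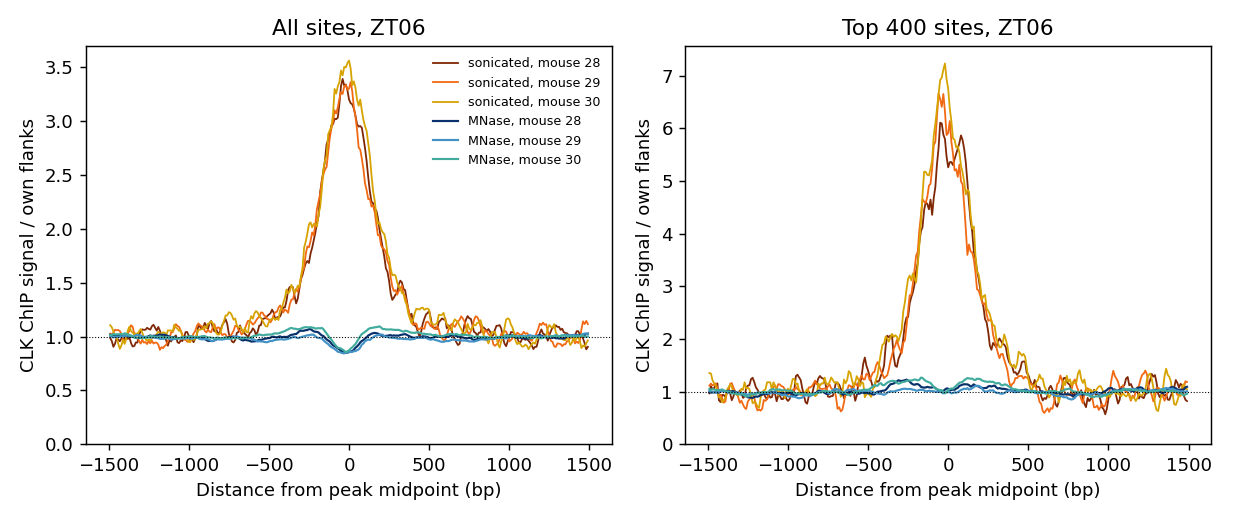
CLK ChIP signal divided by each library's own flanks (y axis, from 0) against the distance from the peak midpoint in bp, 1 line per library, for all sites (left) and the top 400 sites (right, with its own scale). The 3 sonicated libraries peak at 3.36 to 3.56 over all sites and at 6.11 to 7.24 over the top sites, while the 3 MNase-digested libraries stay close to 1 and dip at the middle.

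The dip of MNase-digested chromatin over all sites was narrow, and its lowest value varied little between livers. Its lowest point was at -10, -30 and -20 bp from the midpoint in mice 28, 29 and 30, where negative distances are toward lower coordinates. The relative signal there was 0.850, 0.843 and 0.856, 0.850 ± 0.006 (SD, n = 3). From this point the signal climbed back to the flank level after 146.7, 177.8 and 106.6 bp on the left and after 123.9, 186.3 and 88.7 bp on the right. Mouse 30 returned first and mouse 29 last on both sides.

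Beyond the dip, MNase-digested chromatin formed a pair of low shoulders, which differed between livers more than the dip did. Searched from 100 to 400 bp on each side, the highest points over all sites lay at -250 and 160 bp in mouse 28, at -230 and 200 bp in mouse 29 and at -270 and 190 bp in mouse 30. They were 433 ± 25 bp apart (SD, n = 3). Their relative signals were 1.07 and 1.03 in mouse 28, 1.02 and 1.02 in mouse 29, and 1.09 and 1.10 in mouse 30. Mouse 30 was highest and mouse 29 lowest on both sides. Averaged over the fixed shoulder window, 150 to 300 bp from the midpoint on both sides, the relative signal was 1.03, 0.998 and 1.08, so that only 2 of 3 livers lay above the flanks. Taken from centre to shoulders, the depth of the dip was more alike, at a ratio of 0.870 ± 0.008 (SD, n = 3). Over the whole inner region, up to 990 bp on both sides, the mean relative signal was 0.986, 0.967 and 1.02 in MNase-digested chromatin, near the flank level. In sonicated chromatin it was 1.51, 1.51 and 1.58.

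**Figure D2:**
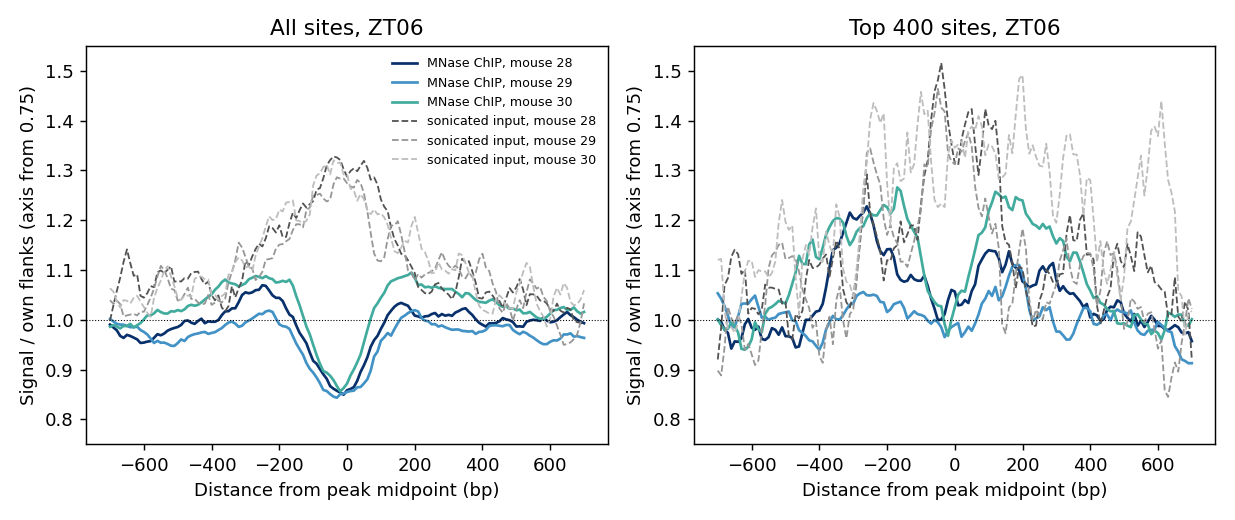
Relative signal of the 3 MNase-digested CLK ChIP libraries (solid) and of the sonicated input of the same livers (dashed) within 700 bp of the midpoint; the y axis starts at 0.75. Over all sites the MNase-digested lines dip to 0.843 to 0.856 where the input lines rise, and over the top sites the shoulders of mouse 30 reach 1.27 and 1.26 and those of mouse 29 only 1.06 and 1.11.

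In sonicated chromatin the same sites carried a single peak in place of a dip. Over all sites the summit stood at -40, 10 and 0 bp from the midpoint with relative signals of 3.39, 3.36 and 3.56. The width at 50% of the height above the flanks was 343, 357 and 333 bp, a mean of 344 ± 12 bp (SD, n = 3), against the median peak width of 309 bp. At 20% of the height the width was 580 ± 22 bp. The dip and the summit of the same liver lay 20 to 40 bp apart, and the MNase-digested shoulder maxima, on average 250 bp to the left and 183.3 bp to the right of the midpoint, sat on the slopes of the sonicated peak, where the sonicated relative signal in the shoulder window was 1.85, 1.89 and 1.97.

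The sonicated profile was higher not only at the centre but over most of the inner region. In the shoulder window MNase minus sonicated was -0.88 ± 0.02 on the log2 scale (SE, n = 3 livers) over all sites. It was -0.33 ± 0.01 from 310 to 500 bp and -0.13 ± 0.01 from 510 to 990 bp. In each of these windows every MNase-digested library lay below every sonicated one (exact two-sided permutation test, p = 0.1; adjusted p = 0.25). The difference fell to 50% of its central value at 210 ± 10 bp from the midpoint (SD, n = 3), averaged over both sides. In successive bins of 100 bp it shrank from -1.83 at the midpoint to -0.24 between 400 and 490 bp, and then stayed between -0.21 and -0.12 up to 890 bp. From 510 to 990 bp the sonicated signal was above its flanks in every liver, at 1.06, 1.07 and 1.09. The MNase-digested signal was at 0.985, 0.973 and 1.00, below its flanks in mice 28 and 29 and at their level in mouse 30. The sonicated input in this window was at 1.04, 1.02 and 1.03.

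**Figure D3:**
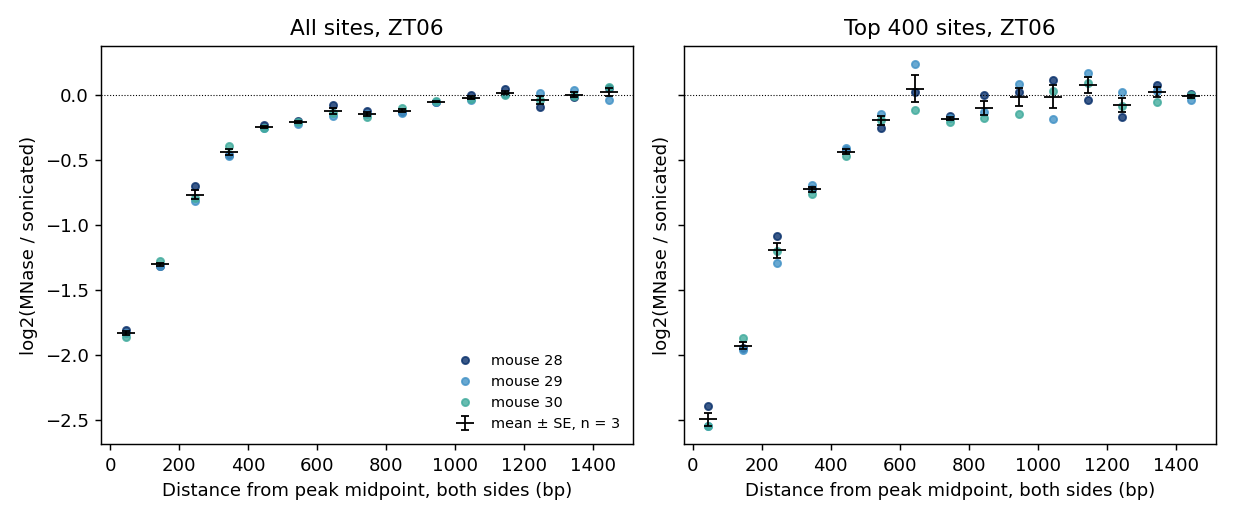
Log2 ratio of MNase-digested to sonicated relative signal (y axis) in bins of 100 bp of distance from the midpoint, both sides averaged (x axis, bp). Coloured points are the 3 livers and black marks their mean with SE (n = 3). Over all sites the mean moves from -1.83 at the midpoint to -0.05 between 900 and 990 bp, and over the top sites the livers lie on both sides of 0 between 600 and 690 bp.

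With limma fitted across all positions on log2 relative signal, 50.5% of positions over all sites were lower in MNase-digested chromatin at a Benjamini-Hochberg adjusted p under 0.05 and 0% were higher. No position was higher at an unadjusted p under 0.05 either. The called positions included all 21 of the centre and all 32 of the shoulder window. They formed 1 unbroken stretch from 620 bp on the left to 420 bp on the right of the midpoint, and 46 more lay farther out, up to 940 bp away. Of the 100 positions from 500 to 990 bp, 54 were called, and in the flanks 0 were. Division by the flanks sets their mean to 1 in every library, so the lack of calls there is partly set by this scaling. At 57.2% of positions all 3 MNase-digested values lay below all 3 sonicated ones, and at 2.01% all 3 lay above. Neighbouring positions share fragments, so these shares describe how far along the site the shapes differ and not a number of independent findings. The split depends on what the libraries are divided by. Division by the median position gave 30.1% lower and 23.7% higher, division by the mean of all positions 19.1% and 74.2%, and no division 9.03% and 87.6%, with the median position at 0.00, 0.32 and 1.05 on the log2 scale in place of -0.13.

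At the top 400 sites the contrast between the kinds of chromatin was larger, and the MNase-digested centre was near the flank level, above it in 2 of 3 livers. The rule behind these sites is unknown, so the larger contrast may follow from how they were chosen. In mice 28, 29 and 30 the centre stood at 5.48, 5.71 and 6.13 in sonicated chromatin and at 1.06, 0.997 and 1.08 in MNase-digested chromatin. MNase minus sonicated was -2.47 ± 0.05 on the log2 scale at the centre, -1.37 ± 0.05 in the shoulder window and -0.57 ± 0.02 from 310 to 500 bp (SE, n = 3 livers; exact two-sided permutation test, p = 0.1 for each; adjusted p = 0.25). From 510 to 990 bp the groups overlapped and the difference was -0.09 ± 0.04 (exact two-sided permutation test, p = 0.2; adjusted p = 0.28). By limma, MNase-digested chromatin was lower at 33.4% of positions and higher at 0%, with 2.01% higher at an unadjusted p under 0.05. The called stretch ran from 450 bp on the left to 500 bp on the right, and only 4 called positions lay outside it. All 3 MNase-digested values were below all 3 sonicated ones at 41.8% of positions and above them at 2.34%. Divided by the median position, 29.4% were lower and 6.35% higher, divided by the mean of all positions 17.4% and 72.6%, and without division 15.7% and 74.9%.

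A dip remained visible between shoulders in the MNase-digested profiles of the top sites, but its outline varied. The lowest points, at -50, -30 and -20 bp, had relative signals of 1.00, 0.965 and 0.968. The left maximum reached 1.23, 1.06 and 1.27 and the right one 1.14, 1.11 and 1.26. The maxima were 360, 460 and 290 bp apart, and the right maximum of mouse 28 lay at 100 bp, the inner edge of the range searched. The ratio of centre to shoulders was 0.930 ± 0.034 (SD, n = 3). At 50% of its height the sonicated peak here had a width of 326 ± 27 bp.

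All sites were split into the top 400 and the remaining sites, whose profile follows from both means if the top sites are part of all sites. In sonicated chromatin the centre was 2.66, 2.58 and 2.82 times the flanks at the remaining sites, and higher at the top sites by 1.10 ± 0.03 on the log2 scale (SE, n = 3), a 2.15-fold difference. In MNase-digested chromatin it was 0.873, 0.857 and 0.904 at the remaining sites, and higher at the top sites by 0.25 ± 0.02, a 1.19-fold difference. The difference between these gains was -0.85 ± 0.05 and was negative in every liver (exact permutation of signs, two-sided, p = 0.25; adjusted p = 0.28). The shoulder window gained 0.76 ± 0.02 in sonicated and 0.14 ± 0.04 in MNase-digested chromatin. From 510 to 990 bp the changes were -0.07 ± 0.05, with livers of both signs, and -0.03 ± 0.005. Every liver thus had more MNase-digested signal at the centre and shoulders of top than of remaining sites, but the gain was smaller than in sonicated chromatin in each window up to 500 bp. If the top sites were ranked by CLK ChIP signal, a larger gain in sonicated chromatin would follow from that choice. The test of the gains cannot tell this apart, and no conclusion is drawn from it.

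**Figure D4:**
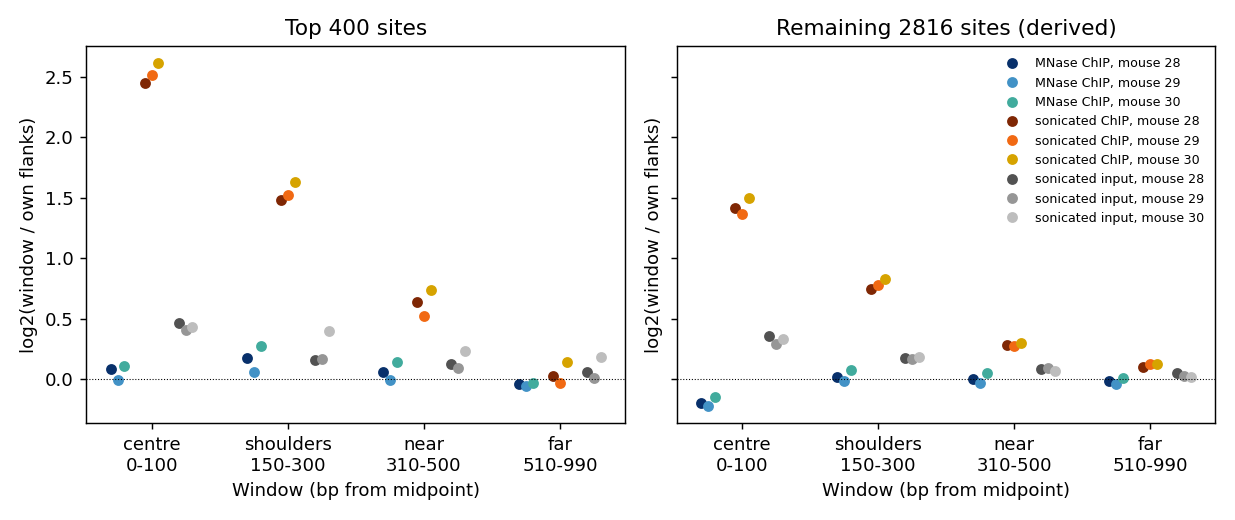
Log2 of the mean signal in 4 windows over each library's own flanks (y axis) for the top 400 sites (left) and the remaining sites (right); points are single libraries of MNase-digested ChIP, sonicated ChIP and sonicated input at ZT06. At the centre the sonicated ChIP points move from a mean of 1.43 at the remaining sites to 2.53 at the top sites, and the MNase-digested ones from -0.19 to 0.06.

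The input of sonicated chromatin, measured in the same livers without antibody, rose moderately over the sites. Over all sites its relative signal at the centre was 1.29, 1.24 and 1.27, between the sonicated and the MNase-digested ChIP, and it decreased to 1.12, 1.12 and 1.16 in the shoulder window. Sonicated ChIP exceeded its own input at the centre by 1.31 ± 0.04 on the log2 scale (SE, n = 3 livers) and in the shoulder window by 0.75 ± 0.01. MNase-digested ChIP was below that input by -0.49 ± 0.02 at the centre and by -0.13 ± 0.02 in the shoulder window. Each of these all-site differences had the same sign in 3 of 3 livers, with no overlap between groups (exact two-sided permutation test, p = 0.1; adjusted p = 0.25). For the top sites the central differences were 2.10 ± 0.06 for sonicated and -0.37 ± 0.03 for MNase-digested ChIP, again without overlap (exact two-sided permutation test, p = 0.1; adjusted p = 0.25). In the shoulder window of the top sites, however, MNase-digested ChIP minus input was 0.02, -0.11 and -0.12 in mice 28, 29 and 30, and the groups overlapped (exact two-sided permutation test, p = 0.7; adjusted p = 0.70). Sonicated ChIP minus input from 510 to 990 bp of the top sites was -0.04 ± 0.004 and was negative in every liver (exact two-sided permutation of signs, p = 0.25, adjusted p = 0.28). Compared without pairing, these groups overlapped too (exact two-sided permutation test, p = 0.6, adjusted p = 0.61). This input comes from sheared chromatin and is no background for MNase-digested chromatin; profiles of MNase-digested input were not used here, since their library names match no sample, so whether the dip is present without the antibody was not tested.

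Counted from the midpoint, the sonicated peak was higher on its left than on its right shoulder, but this rests on where the middle is set. The left shoulder window exceeded the right one by 0.18, 0.20 and 0.14 on the log2 scale in sonicated chromatin of mice 28, 29 and 30 over all sites. In MNase-digested chromatin the values were 0.04, -0.00 and 0.01, and in the input 0.11, 0.02 and 0.06. The kinds of ChIP differed by 0.16 ± 0.02 at all sites and by 0.16 ± 0.04 at the top ones (SE, n = 3 livers; exact two-sided permutation test, p = 0.1; adjusted p = 0.25). The MNase-digested dip itself lay 20 bp to the left of the midpoint on average over all sites. Counted from a point 20 bp to the left, the sonicated livers of all sites stood at -0.03, 0.01 and -0.06, on both sides of 0. Those of the top sites stood at -0.18, -0.08 and -0.13, with the right side higher in each. The kinds of ChIP then differed by -0.04 ± 0.03 for all sites (exact two-sided permutation test, p = 0.3, not adjusted). For the top sites they differed by -0.15 ± 0.07, opposite in sign to the value counted from the midpoint (exact two-sided permutation test, p = 0.1, not adjusted). This point was chosen after seeing the data, and moving the middle to the left along a peak lowers left minus right. The shift shows only that the contrast depends on the middle, and no higher side is concluded.

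At ZT22, the shapes of the 2 kinds of chromatin lay closer together. A liver can be taken only once, so equal mouse numbers at the 2 times were not treated as pairs. The sonicated centre of all sites was 1.325, 1.202 and 1.748 times the flanks in mice 28, 29 and 30 at ZT22, all below the lowest ZT06 value of 3.05. The MNase-digested centre was 0.954, 0.929 and 0.776, below the flanks in 3 of 3 livers as at ZT06, and its mean of 0.8863 ± 0.096 (SD, n = 3) lay within the spread of the 0.8998 ± 0.026 of ZT06. Over the top 400 sites, MNase-digested chromatin averaged 1.06 ± 0.21 at ZT22 and 1.05 ± 0.04 at ZT06, at the centre, and sonicated chromatin 2.09 ± 0.90 and 5.77 ± 0.33. Neither kind of chromatin was tested between the times on its own. Over all sites MNase minus sonicated at the centre was -0.47, -0.37 and -1.17 on the log2 scale in mice 28, 29 and 30 at ZT22, against -1.79 to -1.83 at ZT06. The ZT06 livers varied little (SD 0.02), whereas the ZT22 livers had an SD of 0.43 with mouse 30 nearest to ZT06. The contrast at ZT06 was larger in the shoulder window by -0.66 ± 0.16, from 310 to 500 bp by -0.27 ± 0.05 and from 510 to 990 bp by -0.08 ± 0.02 (SE), and the livers of the 2 times did not overlap in any of these windows (exact two-sided permutation test, p = 0.1; adjusted p = 0.25). At the top sites the centre and the shoulder window did not overlap between the times either, with differences of -1.55 ± 0.52 and -1.12 ± 0.30, while from 310 to 500 bp and from 510 to 990 bp they did. With limma on the 12 ChIP libraries, the difference between the kinds of chromatin was lower at ZT06 at 29.8% of positions for all sites and at 20.4% for the top ones. It was higher at 0% in both sets, with 1.34% and 0.669% higher at an unadjusted p under 0.05. These counts changed when a mouse number was left out at both times, which also leaves fewer libraries to test. Without number 28 limma called 15.7% and 0% (at the top sites 52 positions had an unadjusted p under 0.05). Without number 29 it called 17.4% and 6.69%, and without number 30 33.8% and 22.7%. The median difference over all sites was -0.10, and -0.11 without 28 and -0.11 without 29. Over the top sites it was -0.18, and -0.14 without 28 and -0.18 without 29. Each of these fits had equally many libraries, yet the shares differed with the mouse number left out. How far the falls without 28 and without 29 follow from fewer libraries was not tested.

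**Figure D5:**
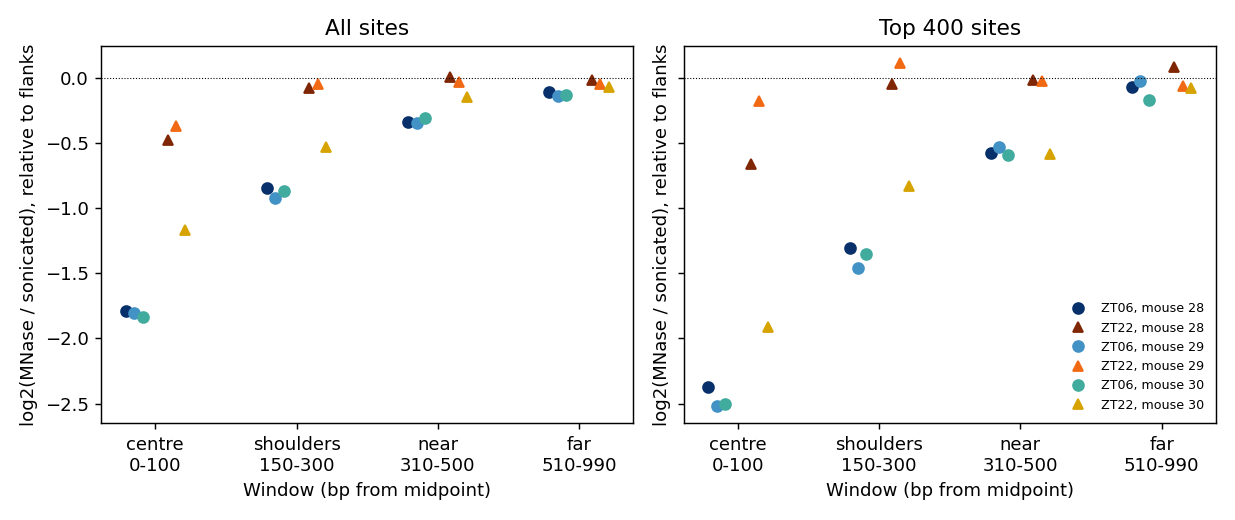
Log2 ratio of MNase-digested to sonicated signal relative to the flanks (y axis) in 4 windows (x axis), 1 point per liver, circles for ZT06 and triangles for ZT22. At the centre of all sites the ZT06 livers lie together between -1.79 and -1.83, and the ZT22 livers spread from -0.37 to -1.17.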

How the data were processed

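Mouse liver CLK ChIP was profiled in 3 MNase-digested and 3 sonicated libraries at ZT06. The authors deposited mean profiles over sites in a unit of signal, 1 row per library and site set, aligned to mm9, with CASAVA 1.7 and Bowtie named in the submitters' processing notes. Fragment extension, filters and scaling are not given in the sources used here. Depth in reads is unknown, and each library was divided by its own flanks. Of 52 rows, 16 from 8 library names match no sample and were not used. Other columns give deposited site positions.

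Positions were tested with limma 3.58.1 (R 4.3.3) on log2 relative signal without a pseudocount, for the 6 libraries without a block, with Benjamini-Hochberg adjustment over 299 positions at 0.05. Window values and the left-minus-right contrast of the shoulders were compared with exact permutation and sign-flip tests (Python 3.11.15, scipy 1.17.1), adjusted over 104 tests. Positions, heights and widths of dips, shoulders and summits were described without a test. Windows, members and alternatives were chosen with earlier results of these data known. Positions in the text are the fixed windows and the extremes of each profile.

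Same-numbered libraries come from the same mice, per the series text. Deviations of same-numbered libraries from their group means were correlated over the positions of the profiles. Over all sites the values were -0.01, 0.19 and 0.26 in mice 28, 29 and 30, and -0.27 to 0.06 for libraries of different numbers. Over the top sites they were -0.25, -0.08 and 0.01, and -0.09 to 0.17 for different numbers. The site sets thus differed in this, and the profiles do not show the pairing by themselves. The paired differences rest on the series text. The planned search for E-boxes in the sites was not run, since no mm9 genome was used here. The derived profile of the remaining sites assumes plain means over 3216 and 400 sites.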

Additional observations from a re-analysis of the deposited data

Results flagged for a closer look

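The difference between MNase-digested and sonicated CLK ChIP was itself different at ZT06 and ZT22 by limma's test of the interaction, lower at ZT06 at 29.8% of positions for all sites and 20.4% for the top ones. Over all sites the called positions formed a stretch from 420 bp on the left to 280 bp on the right of the midpoint with 18 more outside it, and over the top sites from 280 to 250 bp with 7 more. Both included all 21 positions of the centre. Beside this, mouse 30 at ZT22 had the contrast nearest to ZT06, -1.17 for all sites and -1.91 for the top ones, and leaving that number out at both times gave 33.8% and 22.7%. Fewer positions were called when number 28 or number 29 was left out in the same way, with fewer libraries to test. Without number 28 the shares were 15.7% and 0%, so that by limma no top-site position was called (52 of them passed 0.05 before adjustment). Without number 29 they were 17.4% and 6.69%.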

How the results depend on the processing

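The 90 alternative values of the windows at ZT06, the 22 of the difference between site sets and the 80 of the ChIP-to-input differences kept their direction. Positions lower in MNase-digested chromatin over all sites were 30.1% after division by the median position, 19.1% by the mean of all positions and 9.03% on deposited levels, and higher ones 23.7%, 74.2% and 87.6%; over the top sites the last 2 gave 17.4% and 15.7% lower, and higher ones were 6.35%, 72.6% and 74.9% in the same order. These divisors set the level to which positions are compared. Higher positions, 0 in the report, were 1.34% and 0.669% with flanks from 700 bp and 1.67% and 0.669% without moderated variances. Lower ones were 41.5% and 32.1% with flanks from 700 bp and 44.5% and 30.1% without moderated variances. Leaving out libraries gave 39.1 to 55.5% lower and 0 to 3.01% higher over all sites, and 25.8 to 37.5% and 0 to 3.01% over the top sites. With a replicate block for the mouse, 54.2% and 33.4% were lower and 0% and 0.334% higher. Without it 50.5% and 33.4% were lower and 0% higher in both sets. For ZT06 against ZT22, leaving out a mouse number at both times gave 15.7 to 33.8% lower and 0 to 0.334% higher over all sites. Over the top sites it gave 0 to 22.7% lower, and the replicate block gave 26.1% and 19.7% lower over all and top sites. Running means over 5 and 11 positions moved the lowest MNase-digested point to 0.857 and 0.868 over all sites and to 0.999 and 1.01 over the top sites, there at -6.67 bp with either. The longer one moved the summit to 3.31, the width at 50% to 366 and 362 bp, and the distance of 50% difference to 223.3 bp. The left-minus-right contrast reversed to -0.043 and -0.15 when counted from 20 bp to the left, an alternative chosen after seeing the data. Motif positions were not run.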

Other observations

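The libraries differed in how finely their profiles were resolved. Multiplied by 400, the deposited values of the top sites were whole multiples of 1 step, within 0.25 of a step at 100% of positions. The step was 0.467, 0.401 and 0.454 in the MNase-digested libraries of mice 28, 29 and 30 and 3.60, 2.86 and 3.89 in the sonicated ones, 7.72, 7.12 and 8.57 times larger. The variance of the number of steps over the flank positions of all sites was 4.72 to 11.8 times their mean in these 6 libraries. Steps that are not independent or a mean that changes along the flanks would each give such values. These were not told apart, and no counting interval is given from the steps.

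Away from the sites, at least 600 bp from the midpoint, sonicated profiles were rougher. Neighbouring positions 10 bp apart differed by 0.043 to 0.049 on the log2 scale (root mean square, all sites) in sonicated ChIP and by 0.0060 to 0.0071 in MNase-digested ChIP. In sonicated ChIP, the mean square difference at 50 bp was already 85.1 to 90.5% of that at 150 bp. In MNase-digested ChIP it was 33.4 to 43.9%, so these profiles varied over longer distances. In the sonicated input the difference between neighbouring positions was 0.0212 to 0.0267, between those of sonicated and MNase-digested ChIP. Over all sites, sonicated ChIP also had the fewest steps per position and MNase-digested ChIP the most, with the input between them. The profiles thus differed in smoothness as well as in shape. Whether the smoothness follows the kind of chromatin or the number of steps was not tested.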
